A study of Rattus norvegicus with 36 samples.

Results

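In rat lung slices, 255 genes fell with TGFb (transforming growth factor beta) and rose again when Pirf or Sora was given with it. They were chosen from the deposited log2 CPM values (CPM scales each count by the depth of its library) of 14984 protein-coding genes, using the mean of the 6 libraries in each group. A member had a highest group mean of at least 1, a level at least 1 lower with TGFb alone than in untreated slices at the same time, and a level at least 0.5 higher with Pirf and at least 0.5 higher with Sora than with TGFb alone. Of the 14984 genes, 13053 reached the highest mean asked for, and 588 of these were lowered by TGFb by that much. Pirf raised 347 of the 588 by at least 0.5, Sora raised 359, both drugs raised the 255 members, and neither drug raised 137. Because the members were selected on these differences, their fall with TGFb and their rise with Pirf and Sora are given below as a description and are not tested.

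The slices were precision-cut: rat lung is sectioned alive into thin discs that keep their mix of cell types in culture. The 36 libraries form 6 groups of 6. Slices without any addition were taken at time 0 and at time 72, and slices given TGFb were taken at 72, either with TGFb alone or together with Sora, Nint or Pirf. The labels give neither a time unit nor a dose, strain, sex or age, and name no animal. Replicates can therefore be slices of shared animals, and the p-values then measure a spread that may be technical. What is known of the study identifies Pirf as pirfenidone, Nint as nintedanib and Sora as sorafenib. No group received a drug without TGFb.

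TGFb is a secreted cytokine. It binds a pair of serine/threonine kinase receptors at the cell surface, which phosphorylate SMAD proteins that enter the nucleus and regulate genes. In the lung it is known for turning fibroblasts into matrix-producing myofibroblasts and for lowering epithelial and endothelial gene programmes. Pirfenidone is an oral antifibrotic drug whose direct target is not settled. Nintedanib and sorafenib are kinase inhibitors that both act on receptors for vascular endothelial and platelet-derived growth factors, and nintedanib also acts on fibroblast growth factor receptors.

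The files identify genes by Ensembl ID and do not pair the IDs with names, and 0 of the 255 IDs matched the RefSeq gene table used here. Members are therefore described by ID, by counts and by library, with no pathway or cell type, and no check of lung markers was made. Their levels are compared between libraries but not between genes, since no gene lengths were used. In slices, fewer cells of a type and less RNA per cell cannot be told apart. Total counts ran from 15886958 to 23255558 per library at time 0 and from 18971560 to 32933012 at 72. All 255 members had enough reads for the count test, with a median of 3411 reads over the 36 libraries and a lowest total of 411.

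The members fell into 2 kinds by their spread across replicates. In 116 of them the log2 CPM of the 6 time-0 libraries had an SD of 1 or more, and these are called variable. The other 139, with an SD below 1 at time 0, are called steady. The time-0 libraries entered none of the differences that chose the members, but the SD limit of 1 was set after the values were seen, so the split is a description. Near the limit lay 8 members at an SD of 0.8 to 1 and 14 at 1 to 1.2. An SD of this size was found in 45.5% of the members, 28.9% of the 588 TGFb-lowered genes, 16.8% of the 137 that neither drug raised, and 4.04% of the 13053 genes. Limits on differences between group means favour genes that vary between libraries, so these shares are also a description.

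**Figure D1:**
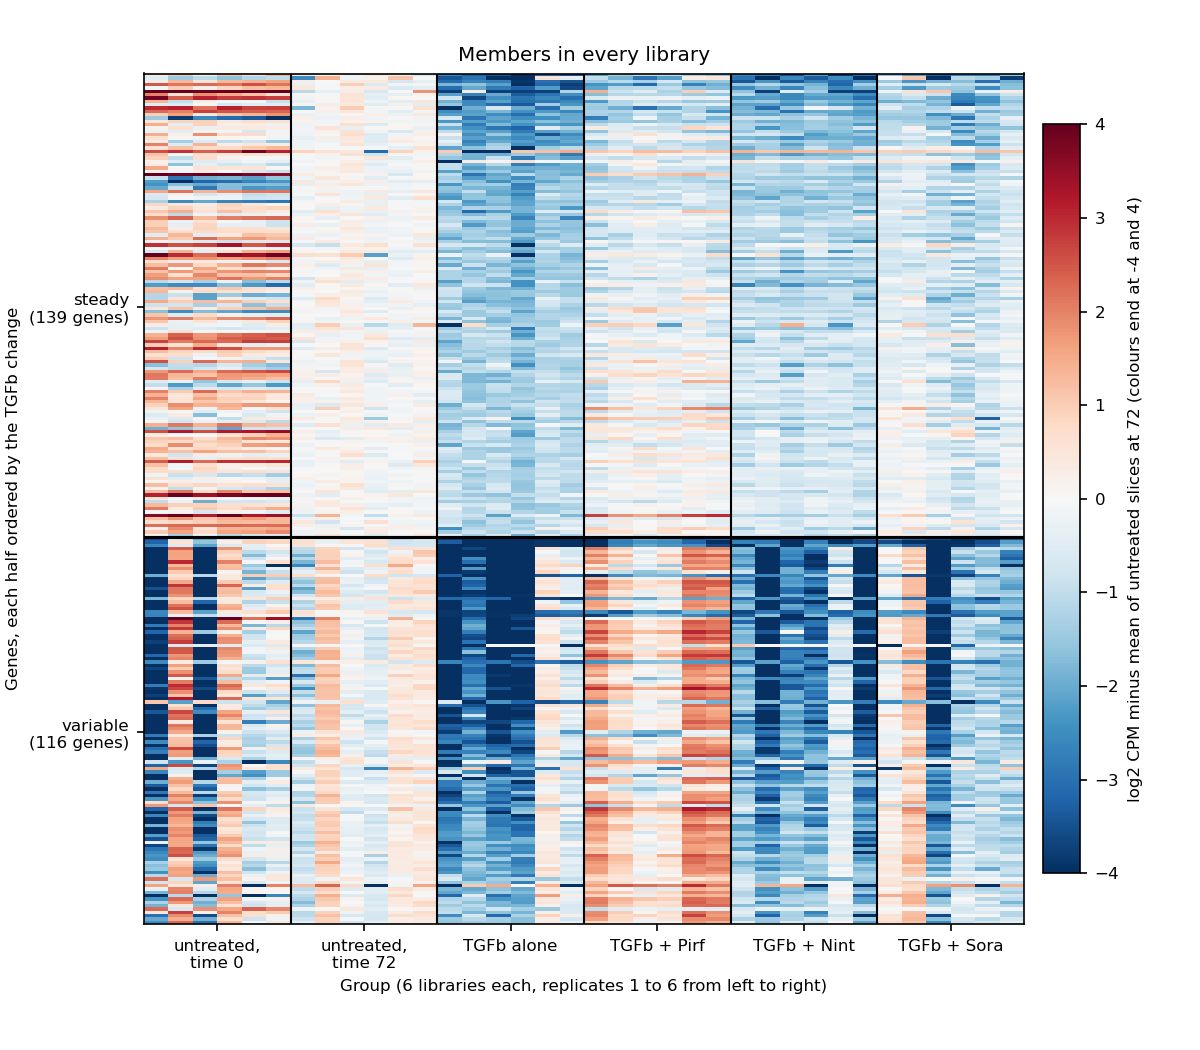
Log2 CPM of each of the 255 members (rows) in each of the 36 libraries (columns), minus the gene's mean in untreated slices at 72; red is higher, blue is lower, and the colours end at -4 and 4. Both kinds of member change by group, and the 139 steady members were split off by their low spread at time 0. The 116 variable members also differ widely between libraries of one group. Their replicates 1 and 3 are dark blue at time 0 and their replicates 5 and 6 are pale with TGFb alone.

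The steady members stood low in each of the TGFb-alone libraries. Their mean log2 CPM, relative to untreated slices at 72, was -1.39, -1.54, -1.51, -1.97, -1.26 and -1.38 in TGFb replicates 1 to 6. The untreated libraries at 72 lay between -0.16 and 0.20, so these groups did not overlap in the mean over the steady members. With Pirf the same mean ran from -0.53 to -0.22, and with Sora from -0.98 to -0.35, both above every TGFb-alone library and below every untreated one. At time 0 it ran from 0.48 to 0.81, above every untreated library at 72. As group means this gives 0.58 ± 0.12 (SD, n = 6) at time 0, -1.51 ± 0.25 with TGFb alone, -0.35 ± 0.11 with Pirf and -0.66 ± 0.27 with Sora. The steady members were split off by their SD in the time-0 libraries. Of the 139, 18 reached the limit on the highest group mean only at time 0. Their position at time 0 is therefore a description.

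The variable members differed widely between replicates of one group. At time 0 their mean was -3.93 in replicate 1 and -4.03 in replicate 3, against 1.44, 0.93, -0.71 and -0.21 in replicates 2, 4, 5 and 6. With TGFb alone it was -4.16, -2.45, -4.04 and -3.71 in replicates 1 to 4, but -0.03 in replicate 5 and -0.91 in replicate 6. These last 2 libraries stood within the range of the untreated slices at 72, which ran from -0.93 to 0.92. With Sora, replicate 3 stood at -3.96, and the other 5 ran from -1.44 to 0.70. With Pirf no library was low, and the 6 ran from -0.16 to 1.48. The SD over the 6 libraries was 2.37 at time 0, 1.74 with TGFb alone, 1.57 with Sora and 0.67 in both the untreated slices at 72 and those with Pirf. A wide spread at time 0 was favoured by the split, which used these libraries.

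**Figure D2:**
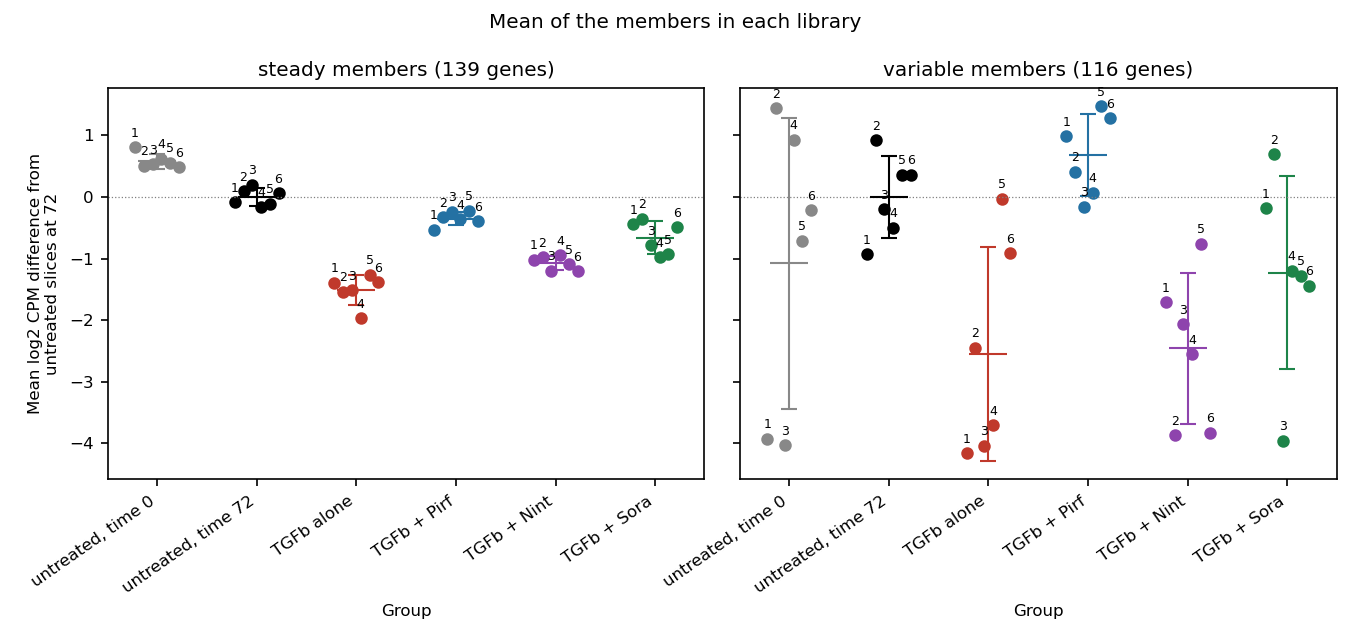
Mean over the 139 steady (left) and 116 variable (right) members of log2 CPM minus the mean of untreated slices at 72, for each library (points, with the replicate number) and as group mean and SD (bars). The steady means are tight within each group, and the variable means run from -4.03 to 1.44 at time 0 and from -4.16 to -0.03 with TGFb alone. The split was made by the SD in the time-0 libraries, so nothing is read from the spread at time 0.

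The low and high libraries were the same ones gene by gene. Replicates 1 and 3 were the 2 lowest at time 0 in 104 of the 116 variable members (89.7%), 32 of the 139 steady members (23%) and 13.5% of the 13053 genes. TGFb replicates 5 and 6 were the 2 highest of their group in 99 variable members (85.3%), 25 steady members (18%) and 6.77% of the 13053 genes. Sora replicate 3 was the lowest of its group in 101 variable members (87.1%), 25 steady members (18%) and 13.5% of the 13053 genes. Genes share their libraries, so these shares describe the libraries and are no test. In variable members 7.61% of the time-0 values and 7.9% of the TGFb-alone values were counts of 0, while no value was 0 with Pirf.

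Of the 2 low libraries at time 0, replicate 1 had 23255558 counts, the most of its group, and replicate 3 had 16106840, the second fewest after replicate 2 with 15886958. The labels name no batch that sets these libraries apart. The part of depth or tissue content in the pattern was not tested. The pattern also reached beyond the members. Among the 13053 genes, 207 (1.59%) had both an SD of 1 or more and the 2 lowest values in replicates 1 and 3 at time 0. Of these, 104 were members and 103 were not. In 74 of the 103 the difference with TGFb was above -1, and 84 had a lower mean with TGFb; the median difference of the 103 was -0.64.

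The size of the fall with TGFb and of the rise with each drug differed between the 2 kinds of member. Over all 255, the median difference with TGFb was -1.66 (range -4.88 to -1.002), with Pirf 1.63 (0.50 to 5.79) and with Sora 0.92 (0.50 to 2.84). In the steady members the medians were -1.36, 1.03 and 0.76, and in the variable members -2.36, 3.26 and 1.22. As a share of the fall with TGFb, Pirf gave back a median of 69.7% in the steady and 140.3% in the variable members, and 133 of the 255 reached or passed their untreated mean. Sora gave back a median of 55.2% and 53.6%, and 8 members reached their untreated mean. Both terms of these shares use the TGFb-alone libraries, so a low library there raises the fall and the rise together.

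**Figure D3:**
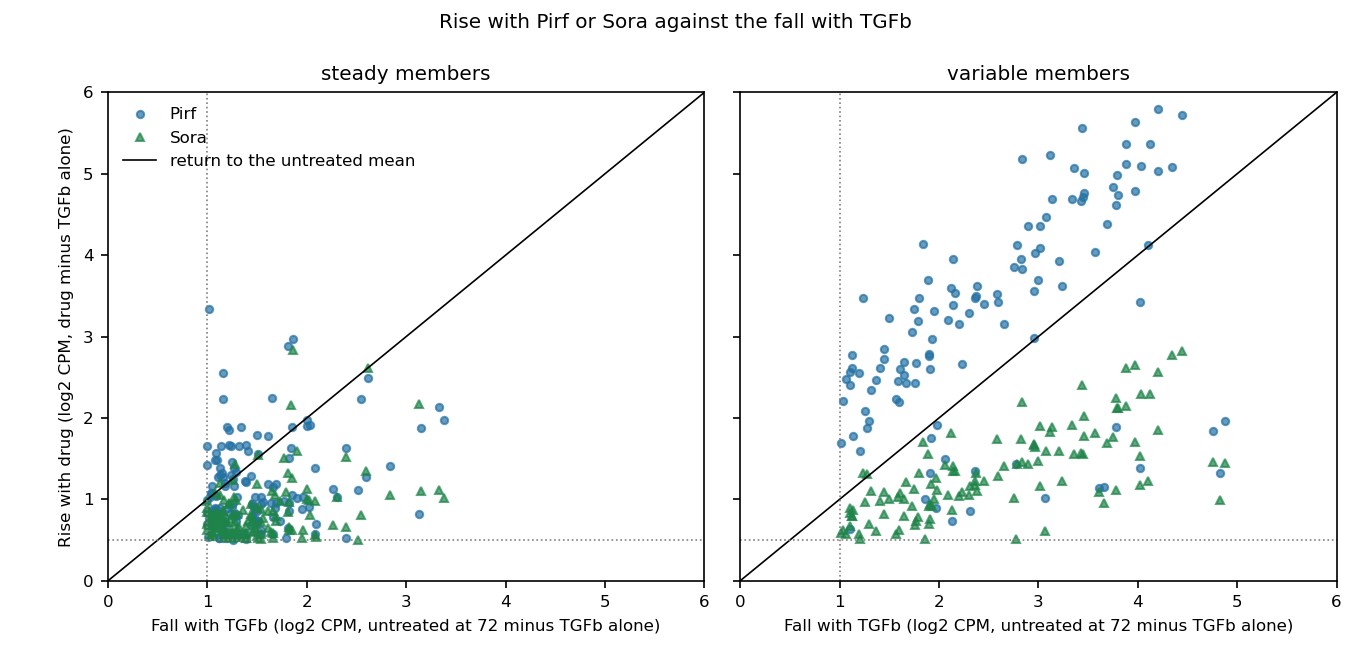
Rise with Pirf (circles) or Sora (triangles) against the fall with TGFb, each in log2 CPM between group means, for steady (left) and variable (right) members. Dotted lines mark the limits of 1 and 0.5 used in the choice, and points on the solid line return to the untreated mean; most variable members lie above it with Pirf and below it with Sora.

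Library by library, the groups that chose the members overlapped in many of them. All 6 TGFb-alone libraries lay below all 6 untreated ones at 72 in 127 members, against 7.65% of the 13053 genes. All 6 Pirf libraries lay above all 6 TGFb-alone libraries in 86 members, against 15.4%, and all 6 Sora libraries did so in 19, against 2.21%. These groups were used in the choice, so nothing is read from the counts.

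Membership moved with single libraries. Leaving out each of the 24 libraries used for the 3 differences gave lists of 205 to 300 genes, and 136 members (61 steady and 75 variable) stayed in all 24 lists. The most members, 68, were lost without TGFb replicate 4, and 43 were lost without TGFb replicate 2 and also without Sora replicate 2. Without TGFb replicates 5 and 6 the rule found 357 genes, 242 of them members. Without TGFb replicates 1, 3 and 4 it found 186 genes, among them 86 of the 139 steady members and 16 of the 116 variable members. This last set of libraries was chosen after their values were seen.

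The members nearest the limits differed little from the genes left out. The smallest falls inside the list were -1.002, -1.003 and -1.003, and those just outside it, with the other limits passed, were -0.997, -0.993 and -0.987. For Pirf the lowest rises inside were 0.503, 0.512 and 0.517, and the nearest outside were one that equalled the limit to 3 decimals, 0.499 and 0.498. For Sora they were 0.503, 0.506 and 0.507 inside and 0.498, 0.489 and 0.488 outside. For the highest group mean they were 1.007, 1.022 and 1.042 inside and 0.956, 0.955 and 0.950 outside.

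The largest falls with TGFb belonged to ENSRNOG00000023870 and ENSRNOG00000013605, both variable members, at log2 differences of -4.88 and -4.83. ENSRNOG00000023870 ran from 2.28 to 5.99 CPM (median 5.05) in untreated slices at 72 and from 0.0509 to 0.324 (median 0.171) with TGFb alone. It ran from 0.19 to 1.23 with Pirf and from 0.242 to 0.888 (median 0.394) with Sora. Every untreated library stood above every TGFb library, with or without a drug, so it stayed under its untreated level after log2 rises of 1.96 and 1.45.

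ENSRNOG00000013605 ran from 1.81 to 4.96 CPM in untreated slices at 72 and from 0.0427 to 0.324 with TGFb alone. With Pirf it reached at most 0.62, with Sora at most 0.683 and with Nint at most 0.486. Unlike most variable members, these 2 genes separated the untreated slices from all TGFb-treated slices in every library at 72.

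Whether the third drug moved the same genes is asked by comparing Nint and TGFb with TGFb alone. The steady members stood a little higher with Nint and the variable members did not. The mean over steady members was -1.02, -0.98, -1.20, -0.95, -1.09 and -1.21 in Nint replicates 1 to 6, all above the highest TGFb-alone library at -1.26 and below the lowest library with Pirf at -0.53. The TGFb-alone libraries are low in these genes by the choice of members, which favours a rise with any drug. In the variable members the Nint libraries ran from -3.87 to -0.76, within the spread of TGFb alone, and replicates 2 and 6 were the 2 lowest in 71 of the 116 (61.2%) against 11.3% of the 13053 genes. As a share of the fall, Nint gave back a median of 30% in steady and 0.68% in variable members.

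The low TGFb-alone libraries in the members, set by the choice, favour higher calls with Nint. The counts of members and the p-values of named members in this comparison are therefore given as a description. By edgeR's quasi-likelihood test, 8 members (3.14%) were called higher with Nint, all of them steady, against 0.882% of the 15644 genes. No member was called lower, against 2.21% of all genes. DESeq2 called 19 members higher and 0 lower, against 257 higher and 428 lower of the 15644 genes. At an unadjusted edgeR p under 0.05 there were 61 members, 57 of them higher. No share of all genes was taken for that count, so nothing is read from it. Among the 588 TGFb-lowered genes 27 (4.59%) were called higher, and among the 137 that neither drug raised, 1. The median log2 fold change was 0.39 in steady members, -0.50 in variable members and -0.02 in all genes, with median SEs of 0.24 and 0.80 in the 2 kinds of member. The 8 calls had log2 fold changes of 0.53 to 0.80 and adjusted p-values of 0.000565 to 0.043. When TGFb replicate 1 was left out, 15 members were called higher, against 151 higher and 378 lower of 15759 genes.

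Of the 8, ENSRNOG00000055933 and ENSRNOG00000004276 had the largest rises with Nint. ENSRNOG00000055933 ran from 1.61 to 2.77 CPM (median 2.35) with TGFb alone and from 2.86 to 4.86 (median 4.09) with Nint, with no overlap. Its log2 fold change was 0.80 with an SE of 0.17 and an adjusted p of 0.00489 (edgeR). With Sora it ran from 2.51 to 4.62 and with Pirf from 2.46 to 4.09, so the 3 drugs overlapped each other.

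ENSRNOG00000004276 ran from 69.1 to 108 CPM (median 92.7) with TGFb alone and from 130.3 to 179 (median 159.5) with Nint, again with no overlap. Its log2 fold change was 0.77 with an SE of 0.16 and an adjusted p of 0.00348 (edgeR). Some counts of both genes were not whole, as RSEM gives for reads shared between genes, so their levels depend on how those reads were divided. The same held for 31 of the 255 members (12.2%), against 16.6% of the 13053 genes.

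**Figure D4:**
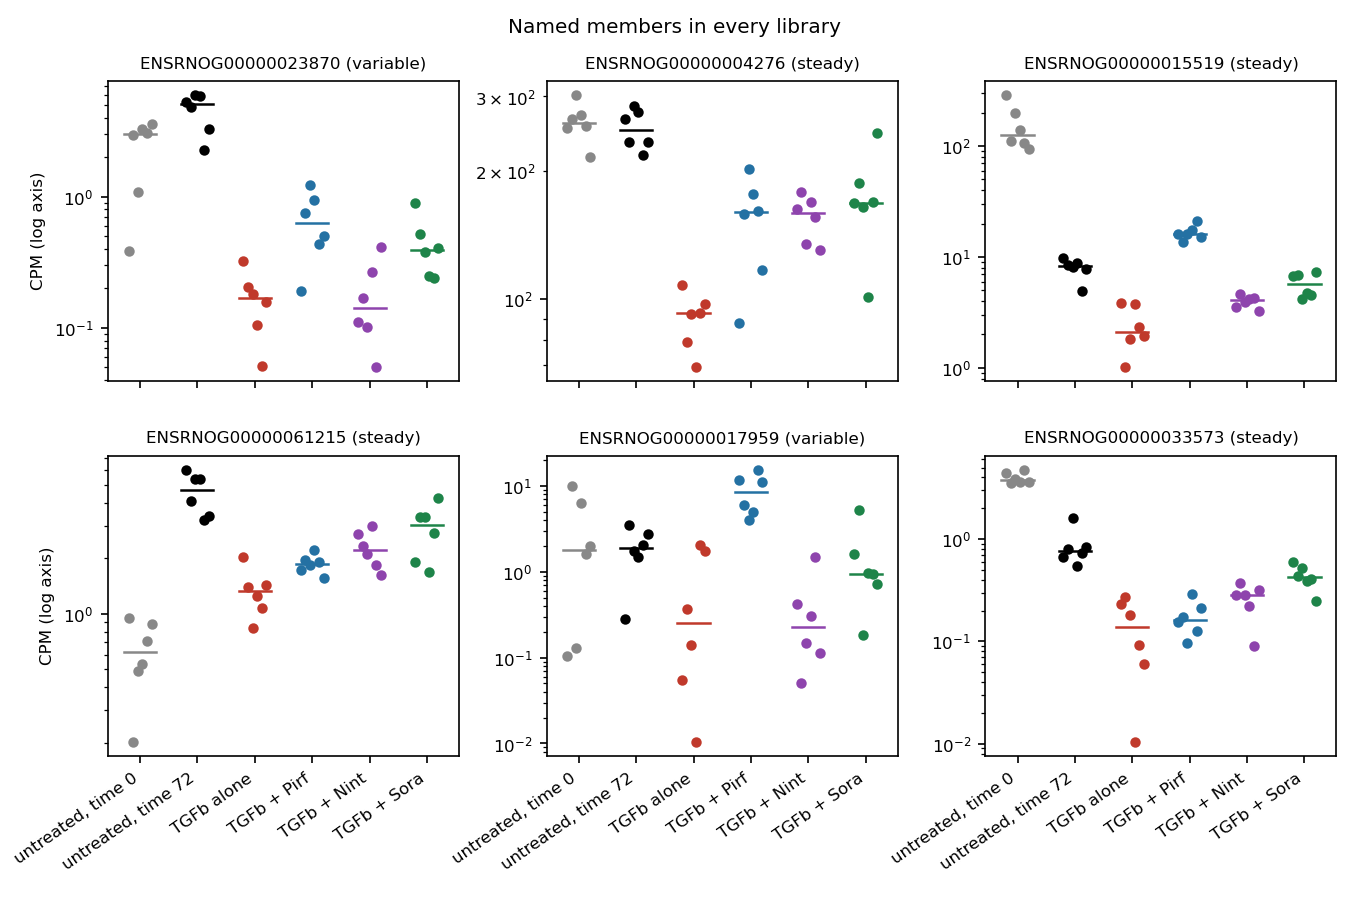
CPM on a log axis for 6 named members in each library (points) with the group median (lines). ENSRNOG00000023870 separates all untreated from all TGFb libraries at 72, ENSRNOG00000004276 has a higher median with each drug than with TGFb alone, and ENSRNOG00000015519 and ENSRNOG00000061215 move in opposite directions between time 0 and untreated slices at 72.

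How the members changed in culture without TGFb is asked by comparing untreated slices at 72 and 0. Over all 255 members the share called lower at 72 was near that of all genes, and the share called higher was smaller. By edgeR's quasi-likelihood test, 80 of the 139 steady members (57.6%) were lower at 72 and 22 (15.8%) higher, against 35.3% lower and 38% higher of the 15644 genes. In the variable members 4 were called lower and 7 higher. The 2 kinds were split by their SD in the time-0 libraries used here, and a large SD gives a large SE. The numbers of calls are therefore not compared between them, and the steady shares are not read against all genes. Over all 255 the counts were 84 lower (32.9%) and 29 higher (11.4%), and in the 588 TGFb-lowered genes 215 (36.6%) and 103 (17.5%). The untreated libraries at 72 are high in the members by choice, which acts against a fall. The limit on the highest group mean acts the other way, since 18 members, all steady, reached it only at time 0 and so had to be lower at 72. Among the 237 others, 66 (27.8%) were lower and 29 (12.2%) higher, and among the 121 other steady members 62 (51.2%) were lower and 22 (18.2%) higher.

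The median log2 fold change in culture was -0.71 in steady members, -0.12 in variable members and 0.02 in all genes, with median SEs of 0.23 and 0.74 in the 2 kinds of member. In the variable members the difference of mean log2 CPM had the opposite sign, with a median of 1.05. An average of log values gives near-zero values, such as those of replicates 1 and 3 at time 0, more weight than edgeR's fit of counts does. Without these 2 libraries, chosen after their values were seen, 114 members were called, 84 lower and 30 higher. Of all 15846 genes in that run, 5436 were lower and 6063 higher. The differences with TGFb and the drugs were of similar size for both directions of change in culture, which was not tested. The 80 steady members lower at 72 had median differences of -1.32 with TGFb, 1.03 with Pirf and 0.79 with Sora, and the 22 higher at 72 had -1.30, 0.83 and 0.72.

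The largest changes in culture were in ENSRNOG00000015519 and ENSRNOG00000031331, which fell, and ENSRNOG00000061215 and ENSRNOG00000014573, which rose. All 4 are steady members. ENSRNOG00000015519 ran from 93.4 to 290.5 CPM (median 126) at time 0 and from 4.89 to 9.7 (median 8.31) in untreated slices at 72, for which edgeR gave a log2 fold change of -4.33 with an SE of 0.26 (adjusted p 5.16e-16). It ran from 1.01 to 3.82 with TGFb alone and from 13.5 to 20.9 with Pirf, where every library stood above every untreated library at 72 and below every library at time 0. With Sora it ran from 4.19 to 7.29, and its log2 fold change against Pirf was -1.54 (SE 0.24, edgeR adjusted p 6.67e-06). Both drug groups were used in the choice of members, so this last difference is a description.

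ENSRNOG00000031331 ran from 2.05 to 3.87 CPM at time 0 and from 0.0648 to 0.473 in untreated slices at 72, for which edgeR gave a log2 fold change of -4.17 with an SE of 0.51 (adjusted p 8.59e-09). It is one of the members that reached the limit on the highest group mean only at time 0, so its direction was set by the choice. With TGFb alone it had a median of 0.0103 CPM, the value that a count of 0 takes, so its later differences rest on very few reads.

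ENSRNOG00000061215 ran from 0.201 to 0.955 CPM at time 0 and from 3.22 to 6.05 in untreated slices at 72, for which edgeR gave a log2 fold change of 2.83 with an SE of 0.26 (adjusted p 1.77e-11). With TGFb alone it ran from 0.833 to 2.03, between its levels in untreated slices at 72 and most of those at time 0. ENSRNOG00000014573 ran from 8.38 to 53.7 CPM at time 0 and from 124 to 173 in untreated slices at 72, for which edgeR gave a log2 fold change of 2.76 with an SE of 0.44 (adjusted p 1.01e-06). With TGFb alone it ran from 19.6 to 95.4, below every untreated library at 72. Without TGFb replicate 4 its log2 rise with Sora was 0.47, under the limit.

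Sora and Pirf were set against each other directly. All of these libraries were used to choose the members, and a lower limit on the rise with Pirf removes genes that Pirf lowered, which leaves fewer that are higher with Sora. The counts of members and the p-values of named members in this comparison are therefore given as a description. Pirf gave the larger mean rise in 212 of the 255 members, in 112 of the 116 variable and 100 of the 139 steady members. By edgeR's quasi-likelihood test, 62 members (24.3%) were lower with Sora than with Pirf and 7 (2.75%) higher, against 20.3% lower and 21.8% higher of the 15644 genes. Of the 588 TGFb-lowered genes, 101 (17.2%) were lower and 127 (21.6%) higher, and of the 137 that neither drug raised, 51 (37.2%) were higher.

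Steady members gave 34 lower (24.5%) and 7 higher calls (5.04%), and variable members 28 (24.1%) and 0, against 20.3% and 21.8% of all genes. The median log2 fold change of Sora against Pirf was -0.24 in steady members, -1.60 in variable members and -0.01 in all genes, with median SEs of 0.23 and 0.71. When Sora replicate 2, the highest Sora library in both kinds of member, was left out, 126 members were called, 121 lower and 5 higher. Of all 15763 genes in that run, 3243 were lower and 3320 higher. Leaving out the highest Sora library lowers the Sora mean of the members.

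The variable members ENSRNOG00000026344 and ENSRNOG00000017959 had the lowest log2 fold changes of Sora against Pirf, at -2.57 (SE 0.71, edgeR adjusted p 0.00423) and -2.48 (SE 0.82, adjusted p 0.0154). ENSRNOG00000026344 ran from 0.039 to 1.18 CPM with Sora and from 1.19 to 4.27 with Pirf, groups that just failed to overlap. ENSRNOG00000017959 ran from 0.182 to 5.25 with Sora and from 4.06 to 15.5 with Pirf, and it spanned 0.105 to 9.99 at time 0.

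The steady member ENSRNOG00000033573 was higher with Sora than with Pirf, at 0.248 to 0.596 CPM against 0.0974 to 0.288, for which edgeR gave a log2 fold change of 1.37 with an SE of 0.36 (adjusted p 0.003). Its untreated libraries at 72 ran from 0.547 to 1.62 and those at time 0 from 3.57 to 4.77, the one group in which it reached the limit on the highest mean. In TGFb replicate 4 it was at a count of 0, and without that library its log2 rise with Pirf was 0.19, under the limit. ENSRNOG00000017256 was higher with Sora by 0.89 on the log2 scale, with an SE of 0.34 (edgeR adjusted p 0.0329), and this call was lost in 10 of 17 alternatives, whose adjusted p ran from 0.0204 to 0.186. Its median was 0.212 CPM with Pirf and 0.209 with TGFb alone. Its place on the list rested on TGFb replicate 4, where it was at a count of 0: without that library its log2 differences were -0.78 with TGFb and 0.02 with Pirf.

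**Figure D5:**
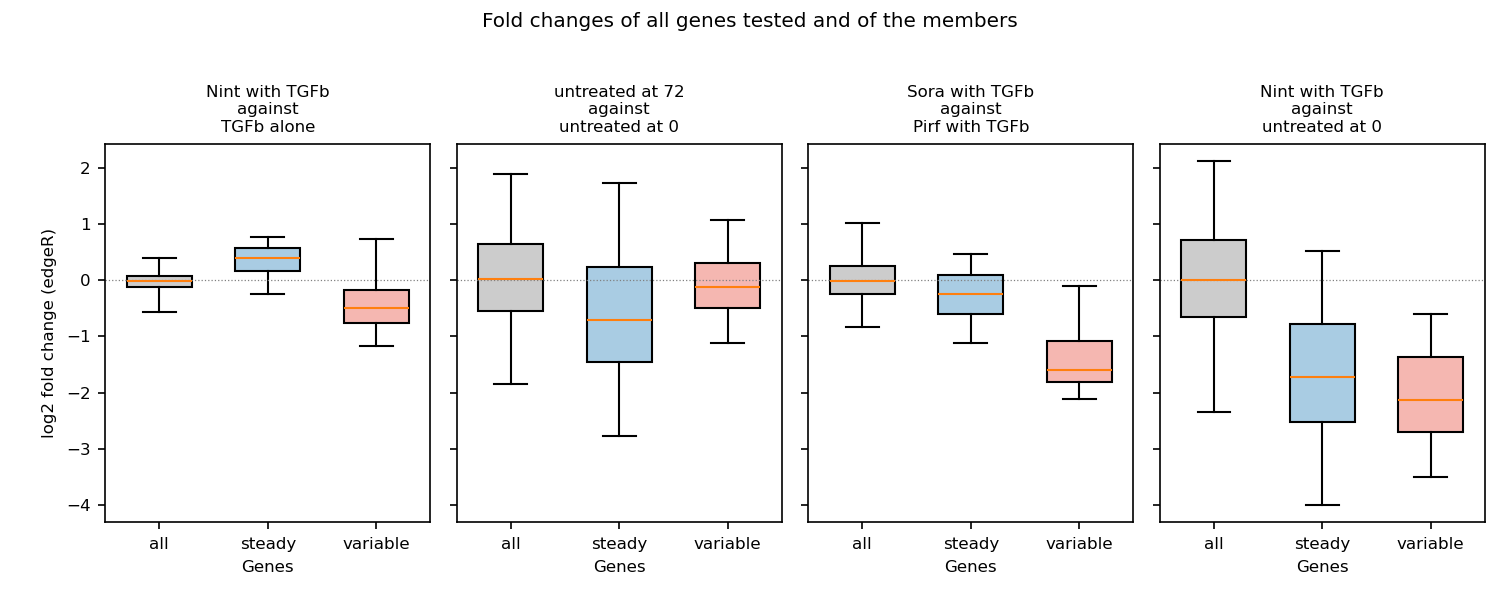
Log2 fold changes from edgeR in the 4 tested comparisons, for all 15644 genes tested, the 139 steady and the 116 variable members; boxes span the quartiles with the median as a line, and whiskers span percentiles 5 to 95. Steady members sit above all genes with Nint against TGFb alone and below them in culture, and variable members sit lowest with Sora against Pirf. The TGFb-alone libraries are low in the members by choice, and the time-0 libraries set the split into steady and variable. Each comparison holds a group used in the choice or the split, so these positions are a description.

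Slices with TGFb and Nint at 72 were also compared with untreated slices at 0. These libraries entered none of the 3 differences that chose the members, but both groups counted toward the highest group mean. The Nint slices also had TGFb, and every member was chosen for a fall with TGFb, which favours a fall here too. Most members were lower with TGFb and Nint at 72 than at time 0. By edgeR's quasi-likelihood test, 195 members (76.5%) were lower and 8 (3.14%) higher, against 38.6% lower and 39.1% higher of the 15644 genes. The calls fell on 111 of the 139 steady and 84 of the 116 variable members for lower, and on 8 steady and 0 variable members for higher. Among the 237 members that reached the limit on the highest mean in a group at 72, 177 (74.7%) were lower and 8 (3.38%) higher. The 588 TGFb-lowered genes gave nearly the same share, 439 lower (74.7%), as did the 137 that neither drug raised, 100 lower (73%). Time in culture, TGFb and Nint all differ between these groups and cannot be told apart here.

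The lowest fold changes with Nint against time 0 were those of ENSRNOG00000026912 and ENSRNOG00000031331. ENSRNOG00000026912 had the widest spread at time 0 of these genes, from 0.0103 CPM, a count of 0, to 88.4 (median 19.6), and it ran from 0.0103 to 0.885 with Nint. The groups overlapped, and its log2 fold change was -6.64 (SE 1.32, edgeR adjusted p 3.22e-05). ENSRNOG00000031331, which was chosen through time 0, had -6.52 (SE 0.64, adjusted p 4.29e-11), with Nint libraries from 0.0103 to 0.101 CPM. ENSRNOG00000061215 and ENSRNOG00000014573, which rose in culture, were also the most raised here, at 1.81 (SE 0.26, adjusted p 2.06e-07) and 1.61 (SE 0.42, adjusted p 0.000906).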

How the data were processed

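The 36 libraries were grouped by their titles. Total RNA was made into stranded libraries after removal of ribosomal RNA, per the labels' protocols. RSEM, edgeR and the build Rnor_6.0 are named in the submitters' processing notes; neither the aligner nor the annotation or strand setting is given in the sources used. The authors deposited a table of expected counts per gene (32883 IDs) and a table of log2 CPM values (14984 genes). The deposited log2 values matched edgeR's log2 CPM (TMM scaling, prior count 0.25) with a largest difference of 5e-14. The rule was applied to these values. CPM printed in the text is 2 to the power of the log2 value.

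Each expected count was rounded to a whole number and then tested with edgeR 4.0.16 in R 4.3.3 (TMM, filterByExpr, one quasi-likelihood fit of 36 libraries, Benjamini-Hochberg adjustment over 15644 genes, call at an adjusted p under 0.05). Each SE was derived from a fold change and its F statistic (the absolute log2 value over the root of F). On counts simulated for Nint against TGFb alone (15644 genes), with 200 changed by a fold of 2, 174 were recovered with 6 false calls. The 200 were drawn only from genes above a floor on mean CPM. Libraries were simulated as independent, with equal means in all other groups. The check therefore does not describe members with few reads or smaller changes. Named IDs were, for each comparison, the 2 called members highest and the 2 lowest in log2 fold change, and the 2 with the largest fall with TGFb. The members and lists were chosen with earlier results of these data known. Gene and marker lists could not be applied without names. Alternatives were DESeq2 1.42.0, limma 3.58.1, other scaling, filters and sample sets, a replicate block and libraries left out.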

Additional observations from a re-analysis of the deposited data

Results flagged for a closer look

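Among 96 groups of 6 values examined (78 for the 13 named IDs and 18 for means over members), 4 held a value set far apart from the other 5 by Dixon's test, which by chance flags about 1 in 20 groups. ENSRNOG00000017256 stood at a log2 CPM of -6.60 in TGFb replicate 4, a count of 0, far under the other 5 TGFb-alone libraries. ENSRNOG00000033573 stood at -3.48 in Nint replicate 5, the lowest of its group. ENSRNOG00000017959, a variable member, stood at -1.82 in untreated replicate 1 at 72. ENSRNOG00000015519 stood at 2.29 in untreated replicate 5 at 72. None of the means over all, steady or variable members was set apart in this way.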

How the results depend on the processing

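Of 183 recomputed counts, 176 stayed within 1.5 times the value given, and of 260 recomputed results for named IDs, 250 stayed on their side of the threshold in the same direction; none reversed, and the 10 lost were all for ENSRNOG00000017256 with Sora against Pirf. A highest group mean of 3 or more left 124 members (90 steady and 34 variable), since fewer genes could enter. Leaving out 1 library gave 205 to 300 members. For Nint against TGFb alone, 6 to 15 members were called with 1 library left out, 21 with only the 12 libraries compared (of 205 members tested) and 19 with DESeq2; all genes called went from 299 without TGFb replicate 3 and 309 without TGFb replicate 2 to 572. With 1 library left out, 49 to 126 members were called for Sora against Pirf, 107 to 113 for untreated slices and 168 to 215 for Nint against time 0; over all alternatives the last 2 ranges were 95 to 115 and 145 to 215, the 145 with limma and the 95 over the members that reached the highest-mean limit at 72. For Nint against TGFb alone, all genes called were 628 of 14593 with only the 12 libraries compared and 685 of 15644 with DESeq2. For Sora against Pirf they were 5998 to 6563 with 1 library left out. In the same way they were 11214 to 11474 for untreated slices and 11950 to 12191 for Nint against time 0. The cause of the moves in these counts was not tested. Scaling by library totals gave 339 members, 254 of them shared. It moved the median of all genes by 0.15 with Pirf and 0.10 with Sora against TGFb alone. In culture it gave 35 higher and 80 lower members, against 6314 higher and 4947 lower of the 15644 genes.

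Same-numbered libraries had correlations of their deviations from -0.292 to 0.63 for Nint and TGFb alone and 0.0119 to 0.258 for untreated slices. The range was -0.341 to 0.2 for Sora and Pirf and -0.324 to -0.0218 for Nint and time 0. With a replicate block, 9, 114, 99 and 192 members were called in these comparisons, against 8, 113, 69 and 203 without it. All genes called with the block were 487, 11519, 6699 and 12148 of 15644, against 483, 11454, 6592 and 12161 without it. Other pairs of groups were not compared, so whether replicate numbers pair the samples was not settled. In the variable members, replicates 1 and 3 had the lowest means at time 0 and also with TGFb alone. In the other groups a different pair was lowest, with Nint replicates 2 and 6. Depth limits members at a few reads per library, where a single count of 0 sets the mean log2 CPM.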
